A study of Mus musculus with 24 samples.

Results

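Messenger RNA of the infarcted wall of the mouse heart was compared between the end of the first week and the first day of reperfusion. The comparison holds 8 of the 24 arrays of the study, chosen by their titles: 4 arrays of vehicle hearts at 168 h and 4 arrays of vehicle hearts at 24 h. All hearts came from male C57BL6/J mice, and the left anterior descending coronary artery had been tied for 45 min and then released. Vehicle mice received phosphate-buffered saline with 0.1% bovine serum albumin. The other 4 vehicle arrays, at 48 h, served to find genes that peaked or dipped in between, and 4 arrays each of IGF1 hearts at 168 h and 24 h are given beside them. IGF1 mice had the same ischemia and received insulin-like growth factor 1, 40 ng/g under the skin at release and 1 µg/g per day from a pump for the first days. The pieces came from the anterior wall downstream of the tie, its area at risk, a mixture of surviving and dying myocytes, blood cells and stroma. The age of the mice is not given in the sources used here. Every vehicle label names the ischemia, although the design text calls the controls sham-operated, so no unoperated heart enters any comparison here.

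As background, reperfused infarcts heal in overlapping stages. Neutrophils and then inflammatory monocytes enter first and clear dead muscle, macrophages change towards repair, and fibroblasts divide, become contractile myofibroblasts and lay down collagen. The scar then matures as its fibres are crosslinked and coated with small proteoglycans. In bulk tissue, fewer cells of a type and less RNA per cell cannot be told apart, and this holds for each difference given below.

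The values are log2 signals of 1 probe per gene. On each array 0 is the 75th percentile of the signals, and a difference of 1 is a doubling. Signals of different genes are not compared, because probes differ in brightness. Of 15875 genes tested, 4657 (29.3%) were higher and 4877 (30.7%) were lower at 168 h than at 24 h, together 60.1%, after adjustment over all genes (limma, Benjamini-Hochberg, threshold 0.05). The median over all genes was -0.0013. With the array median in place of the 75th percentile it was -0.1317, and 38.0% of the calls were higher, against 48.8% with the 75th percentile. The changes more often exceeded 4-fold upward, in 557 genes, than downward, in 266 genes. In 3937 genes (24.8%) all 4 arrays at 168 h lay above all 4 at 24 h, and in 4433 genes (27.9%) all lay below. The 168 h arrays sat on slides 1, 1, 1 and 4 and the 24 h arrays on slides 1, 2, 3 and 4, each slide having been scanned once. Within both slides that held both times, 97.8% of the higher genes were above 24 h and 99.4% of the lower genes were below it. These genes had been called on the same arrays, and each of these slides held only 1 vehicle array at 24 h. The shares are therefore partly fixed by the choice of genes and are no separate check of the slides. No label ties an array to an animal. The p-values therefore speak of the spread among these samples alone, and part of it may be technical.

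Markers of the labelled tissue, heart muscle with its stroma and vessels, were well above background at both times. Myh6, the main motor protein of the adult mouse ventricle, had 7.77, 7.90, 7.98 and 8.30 in vehicle hearts at 168 h, against 8.04, 7.84, 7.84 and 8.37 at 24 h. The times overlapped, with a log2 difference of -0.032 (SE 0.14, adjusted p = 0.865). The mean of all kept probes of Myh6, whose sequence is close to that of Myh7, was instead 0.47 higher (adjusted p = 0.0296). Tnnt2 and Actc1, thin filament proteins, differed by -0.079 and 0.014 (adjusted p = 0.609 and 0.922). The endothelial junction gene Cdh5 differed by -0.064 (adjusted p = 0.551) and the fibroblast receptor gene Pdgfra by -0.092 (adjusted p = 0.605). The other fibroblast markers of this check, Col1a1 and Dcn, were higher at 168 h. Their differences ran from 2.62 to 3.11 and from 1.74 to 2.10 over the alternatives. The leukocyte surface gene Ptprc differed by -0.30 (adjusted p = 0.0326), a call that was lost with only the 168 h and 24 h vehicle arrays in the fit (adjusted p = 0.0991), under 5 other alternatives, and without replicate 3 or 4 at 24 h or replicate 2 or 3 at 168 h.

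**Figure D1:**
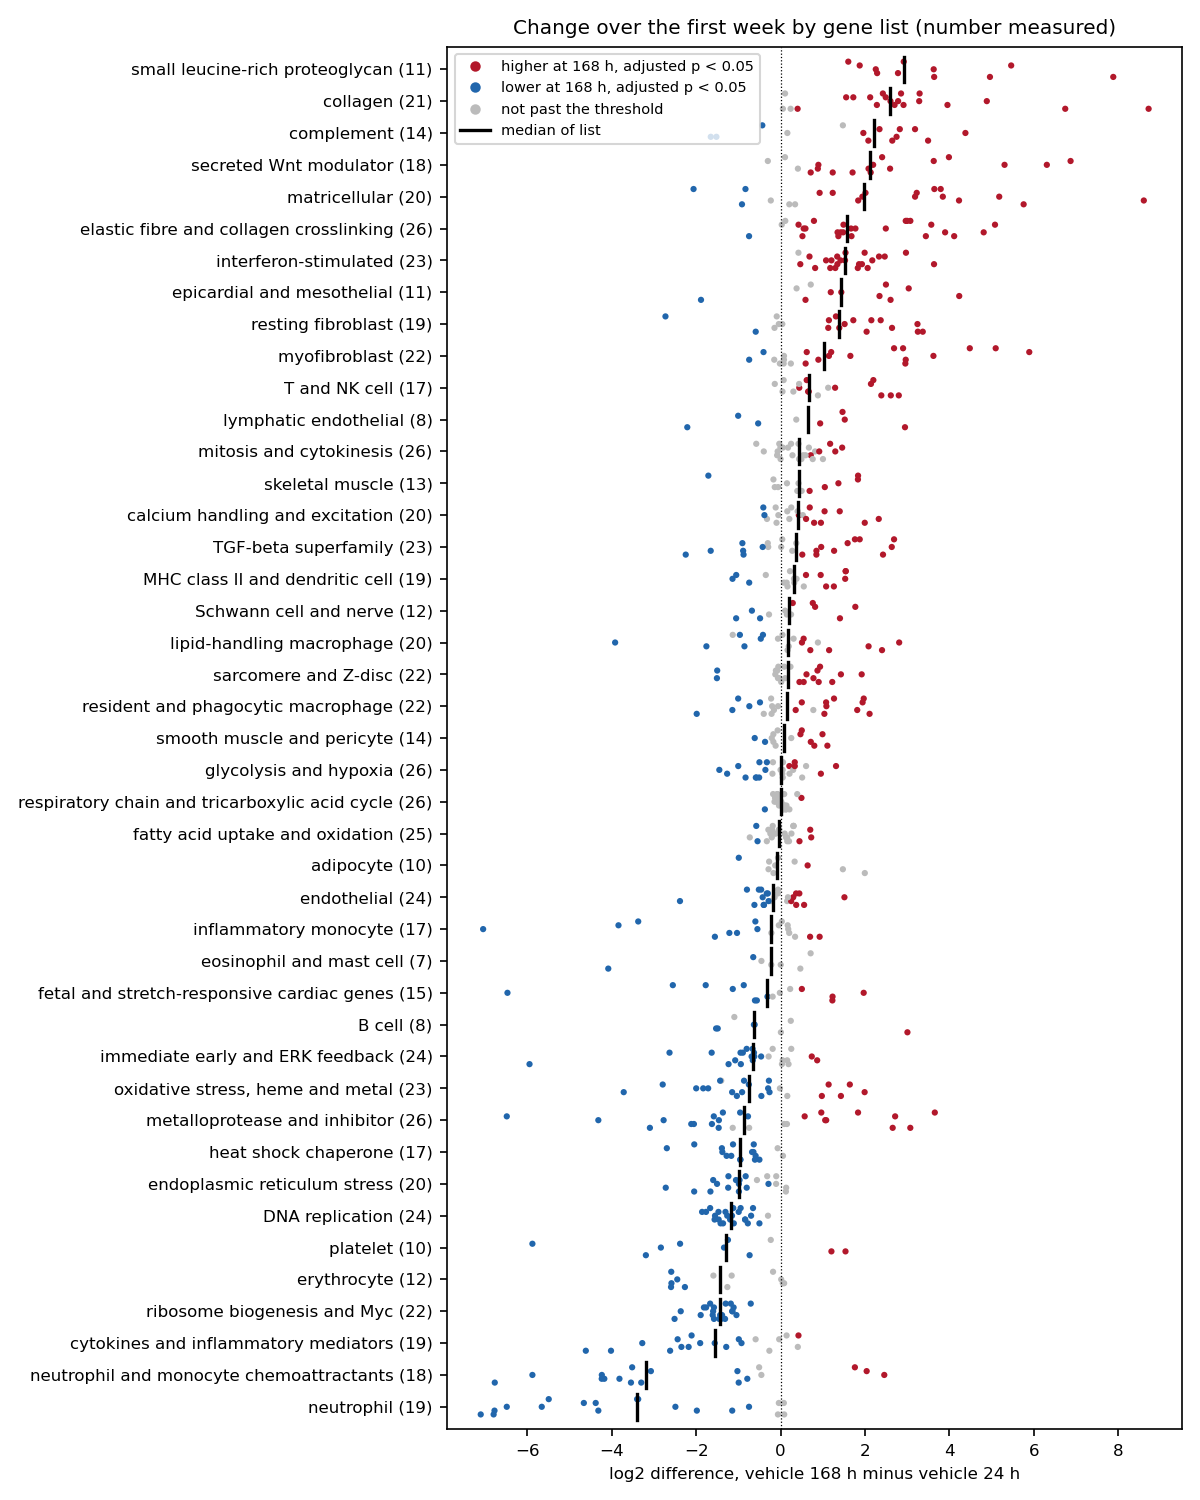
Log2 difference of each measured list gene, vehicle 168 h minus vehicle 24 h (x axis), for 43 gene lists ordered by their median (black bar), with the number measured in brackets. Red and blue points passed the threshold higher and lower, grey points did not; genes below background at one time are drawn at their fitted value. Matrix lists lie at the top, with medians up to 2.92, and neutrophil genes at the bottom, at -3.40.

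Several of the largest increases of the week were genes of secreted matrix proteins. Comp encodes cartilage oligomeric matrix protein, which binds and spaces collagen fibrils. It had 6.27, 5.77, 6.28 and 4.54 at 168 h, against -3.02, -2.45, -3.66 and -2.43 at 24 h. No array at 168 h came near any at 24 h, and the difference of 8.61 (SE 0.45, adjusted p = 6.57e-12) is a 389.8-fold increase. Col8a2, a network-forming collagen of basement membranes, had 2.85, 2.30, 2.80 and 1.61 at 168 h, against -6.37, -5.77, -6.87 and -6.31 at 24 h, where no array was well above background. Its increase is therefore a lower bound, at least 143-fold (adjusted p = 3.05e-11). Such bounds set the mean at 168 h against the lowest signal counted as above background on each 24 h array, or against the dim probe itself where it was brighter. Ecrg4, a secreted peptide precursor linked to growth arrest, was at least 208-fold higher (adjusted p = 6.93e-13). C1qtnf3, a secreted relative of the complement component C1q and of adiponectin, rose at least 217-fold (adjusted p = 3.12e-14), and Fmod, encoding the collagen-binding proteoglycan fibromodulin, at least 134-fold (adjusted p = 2.36e-12). Col11a1, a fibrillar collagen of cartilage that starts thin fibrils, rose at least 45.9-fold (adjusted p = 2.14e-11). The hyaluronan-degrading protein gene Cemip was at least 20.1-fold higher (adjusted p = 8.59e-12). Ptn, the growth factor pleiotrophin, was well above background on 3 of the 4 arrays at 24 h and was 7.46 higher (SE 0.36). Among these, Ecrg4 at 48 h averaged -3.10 and Comp -0.17, between the levels of the other times.

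Collagen genes rose almost as a group. Of 21 measured, 18 rose and 0 fell, where 29.3% of all genes rose, 30.7% fell and 60.1% passed either way. The median difference was 2.60, against -0.0013 over all genes. Col1a1, the main chain of scar collagen, had 7.03, 7.02, 7.05 and 7.31 at 168 h, against 4.40, 4.40, 3.76 and 4.20 at 24 h. The arrays of the 2 times were far apart and those at 168 h were tightly grouped, for a difference of 2.91 (SE 0.15, adjusted p = 5.57e-12). Col3a1, the partner of type I collagen in young scars, differed by 2.12 (adjusted p = 5.61e-10). Col5a1, which limits fibril width, differed by 2.49, and Col12a1 and Col14a1, which sit on fibril surfaces, by 3.95 and 4.89. The basement membrane chains Col4a1 and Col4a2, made by vessels and muscle, did not pass the test, with differences of 0.11 and 0.054 (adjusted p = 0.616 and 0.739). With quantile normalization both passed, at 0.56 and 0.44. Within slide 1, Col1a1 was 2.63 higher at 168 h, and within slide 4 it was 3.11 higher.

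The small leucine-rich proteoglycans, which coat collagen fibrils and bind growth factors, were higher in 11 of 11 members, with a median of 2.92. Aspn, encoding asporin, had 3.07, 2.89, 2.74 and 2.29 at 168 h, against -1.70, -2.30, -2.92 and -1.92 at 24 h, a difference of 4.96 (SE 0.23, adjusted p = 1.39e-12). Ogn, encoding mimecan, was 3.63 higher, and Dcn, encoding decorin, an inhibitor of TGF-beta, was 1.87 higher. Omd, osteomodulin, was not above background on any array at 24 h and rose at least 19.1-fold (adjusted p = 4.45e-08). The lowest of the 4 values at 168 h belonged to replicate 4 for Comp, Fmod, Aspn, Ogn and Omd alike. Among the vehicle arrays at 168 h only replicate 4 sat on slide 4, so here and below its sample and slide cannot be told apart.

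Most elastic fibre and crosslinking genes rose: 23 of 26 rose and 1 fell, with a median of 1.58. Eln, the elastin gene, had 4.32, 3.68, 3.87 and 3.12 at 168 h, against -1.01, -1.45, -1.46 and -1.40 at 24 h. Its mean at 48 h was -1.53, no higher than at 24 h, so its increase of 5.08 (SE 0.32, adjusted p = 7.35e-11) lay between 48 h and 168 h. The elastic fibre partners Fbln5 and Mfap4 were 3.90 and 4.81 higher. Lox, the lysyl oxidase that crosslinks collagen and elastin, had 4.88, 4.32, 4.78 and 4.06 at 168 h, against 1.67, 1.13, 1.44 and 1.50 at 24 h, and was 3.07 higher (SE 0.21, adjusted p = 2.4e-10). Unlike Eln, Lox had a mean of 3.34 at 48 h, above its 24 h mean by 1.90 (adjusted p = 8.42e-06). Serpinh1 and P4ha1, needed inside the cell to fold procollagen, did not pass the test at 0.11 and 0.026 (adjusted p = 0.592 and 0.906), although Serpinh1 passed at 0.57 with quantile normalization. The 1 member that fell, Tll1, a protease relative of Bmp1, differed by -0.75, and with slide as a block it no longer passed.

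Matricellular proteins, which signal to cells from the matrix without building it, split. Of 20, 14 rose and 3 fell, with a median of 1.97. Postn, encoding periostin of activated fibroblasts, had 6.68, 6.63, 6.70 and 6.12 at 168 h, against 3.35, 2.87, 2.78 and 2.57 at 24 h, 3.64 higher (SE 0.23, adjusted p = 8.61e-11). Cthrc1 and Cilp, both products of scar fibroblasts, were 5.18 and 5.76 higher (adjusted p = 7.63e-13 and 3.41e-12). Tnc, encoding tenascin C of fresh wounds, fell: it had -0.13, 0.087, -0.042 and 0.62 at 168 h, against 1.15, 0.85, 1.20 and 0.67 at 24 h. The 2 times just failed to touch, with a difference of -0.83 (SE 0.24, adjusted p = 0.00557). Also lower were Tgfbi, an adhesion protein induced by TGF-beta, at -2.06, and Ccn1, an early response matrix protein, at -0.92.

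More genes of both resting and activated fibroblasts rose than fell. Of the 19 resting fibroblast genes 13 rose and 2 fell (median 1.39; 1 fell without replicate 1 at 24 h or replicate 1 or 4 at 168 h), and of the 22 myofibroblast genes 14 rose and 2 fell (median 1.02). Pi16, a mark of a fibroblast reservoir in many organs, had 5.78, 5.69, 5.91 and 5.25 at 168 h, against 2.60, 2.10, 2.03 and 2.41 at 24 h, 3.37 higher (SE 0.27, adjusted p = 2.29e-09). Fap, a surface protease of activated fibroblasts, had 2.76, 2.34, 2.48 and 2.63 at 168 h, against -0.28, -0.11, -0.98 and -0.24 at 24 h, 2.96 higher (adjusted p = 1.89e-11). Both genes had 168 h arrays wholly above the 24 h arrays. The integrin-like gene Itgbl1 was 5.89 higher, the collagen receptor gene Itga11 3.62 higher, and Nox4, an oxidase induced by TGF-beta, at least 5.32-fold. Acta2, the smooth muscle actin that defines myofibroblasts and is also made by vessel walls, did not pass: it had 5.32, 5.74, 5.69 and 5.57 at 168 h, against 5.54, 5.68, 5.25 and 5.57 at 24 h, and differed by 0.072 (adjusted p = 0.547). With quantile normalization Acta2 passed, at 0.56 (adjusted p = 2.99e-05). Has1, a hyaluronan synthase in the resting list, moved the other way, at -2.73 (adjusted p = 2.79e-08).

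Secreted modulators of Wnt signalling, which bind Wnt ligands or their receptors, mostly rose. Of 18 members 15 rose and 0 fell, with a median of 2.11, or 1.66 with the 4 members below background at 24 h placed at their bounds. With normexp background correction 12 rose and the median was 0.95. Sfrp2, a secreted Frizzled-related protein of fibroblasts, had 5.72, 5.19, 5.61 and 4.63 at 168 h, against -0.80, -1.45, -2.44 and -1.64 at 24 h, 6.87 higher (SE 0.35, adjusted p = 4.76e-12). Dkk3, of the Dickkopf family, had 4.59, 4.03, 4.13 and 3.44 at 168 h, against -1.87, -1.99, -3.19 and -1.996 at 24 h, 6.31 higher (SE 0.28, adjusted p = 8.38e-13). Both genes separated the times without overlap, and Sfrp1 and Frzb followed at 5.31 and 3.63. Of the Wnt ligands, Wnt11 was 2.19 higher (adjusted p = 6.48e-09) and Wnt5a 0.71 higher (adjusted p = 0.000762).

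Ligands and inhibitors of the TGF-beta superfamily changed in both directions. Of 23, 11 were higher and 6 were lower, where 29.3% of all genes were higher and 30.7% were lower. Their median was 0.37. The median was 0.19 with slide as a block, 0.24 with the array median and 0.23 without replicate 3 at 24 h. Tgfb3 had 5.37, 5.12, 5.38 and 4.89 at 168 h, against 2.34, 2.94, 2.27 and 2.47 at 24 h, 2.69 higher (SE 0.14, adjusted p = 8.17e-12). Its sister ligands Tgfb1 and Tgfb2 were lower, at -0.43 and -0.91 (adjusted p = 0.000745 and 0.00545). Inhba, the activin A subunit, had -0.035, -0.13, 0.24 and -0.17 at 168 h, against 1.85, 2.31, 2.58 and 2.15 at 24 h, -2.25 (SE 0.23, adjusted p = 4.66e-08). Its antagonist Fstl3 was also lower, at -1.66, while Fstl1, a secreted glycoprotein of fibroblasts, was 2.43 higher. Igf1 itself, made by macrophages and fibroblasts, had 3.09, 2.91, 2.82 and 2.57 at 168 h, against 1.08, 1.04, 0.44 and 0.77 at 24 h, 2.02 higher (SE 0.16, adjusted p = 1.77e-09).

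Matrix-degrading enzymes and their inhibitors changed in both directions: 9 of 26 rose and 13 fell, where 29.3% of all genes rose and 30.7% fell. Their median was -0.87. Mmp2, the gelatinase of fibroblasts, had 4.39, 3.96, 4.33 and 3.53 at 168 h, against 0.84, 0.34, 0.035 and 0.39 at 24 h, 3.65 higher (SE 0.22, adjusted p = 3.9e-11). Mmp9, the gelatinase of neutrophils, had -3.05, -5.83, -6.59 and -2.45 at 168 h, against 2.19, 1.74, 2.25 and 1.87 at 24 h, -6.49 (SE 0.81, adjusted p = 8.1e-07). The times did not overlap, though Mmp9 was well above background on only 2 arrays at 168 h and its values there were far apart. Among the inhibitors, Timp2 was 2.71 higher and Timp1 was lower, at -1.46 (adjusted p = 2.92e-11 and 2.76e-07). Genes of the plasminogen activator system were lower too: Plau, the urokinase activator, at -1.37, and Plaur, its receptor, at -3.10.

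Neutrophil genes fell steeply. Of 19 measured, 15 fell and 0 rose, with a median of -3.40, or -2.49 with 2 members at their bounds and -1.91 with normexp background correction. S100a8 and S100a9 form calprotectin, the main cytosolic protein of neutrophils. S100a8 had -0.63, -3.64, -2.68 and 1.72 at 168 h, against 6.05, 5.26, 6.14 and 5.75 at 24 h, a difference of -7.11 (SE 0.75, adjusted p = 8.66e-08). The 24 h arrays were close together, while the 168 h arrays spread widely, replicate 4 being the highest and replicate 2 the lowest. S100a9 had 1.05, -2.35, -0.61 and 3.49 at 168 h, against 7.35, 6.78, 7.51 and 7.07 at 24 h, in the same order of replicates, and Cxcr2, the receptor that draws neutrophils to chemokines, had -4.98, -7.55, -5.37 and -1.71 at 168 h, against 2.07, 1.46, 2.36 and 1.69 at 24 h. Their differences were -6.78 and -6.80 (adjusted p = 5.87e-07 and 1.13e-06). Cxcr2 was well above background on 2 of the 4 arrays at 168 h, and its difference was -4.68 with normexp background correction. The decoy receptor gene Il1r2 differed by -5.66 (adjusted p = 1.63e-09). The mean over the list was -1.88, -3.23, -2.67 and -1.05 at 168 h, against 1.21, 0.95, 1.52 and 1.11 at 24 h, so each 168 h heart was below each 24 h heart. The 4 members that did not pass were Ly6g, Camp, Csf3r and Padi4. The probe for Ly6g, the classic mouse neutrophil surface gene, had -0.51, -0.47, -0.59 and -0.31 at 168 h, against -0.12, -0.66, -0.50 and -0.35 at 24 h (adjusted p = 0.739), and that for Csf3r differed by -0.042 (adjusted p = 0.73). With quantile normalization Csf3r was 0.43 higher (adjusted p = 0.00145).

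Chemokines that recruit neutrophils and monocytes also fell: 13 of 18 fell and 3 rose, with a median of -3.19. Cxcl3, a ligand of Cxcr2, had -5.66, -7.53, -6.86 and -3.25 at 168 h, against 0.98, 0.49, 1.68 and 0.66 at 24 h, -6.77 (SE 0.62, adjusted p = 1.09e-08), with 1 array at 168 h well above background and a difference of -4.23 with normexp background correction. Ccl2, which draws monocytes from the blood, had 2.30, 2.01, 1.53 and 1.86 at 168 h, against 6.13, 6.13, 6.17 and 5.99 at 24 h, -4.18 (SE 0.29, adjusted p = 2.47e-10). Its arrays agreed closely within each time, and Ccl7, a neighbour ligand of the same receptor, differed by -4.24. The 3 that rose were Ccl8, by 2.46, and the membrane-bound chemokines Cxcl16 and Cx3cl1, by 2.04 and 1.76 (adjusted p = 8.78e-07, 1.71e-10 and 4.56e-08).

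Cytokines and inflammatory mediators were lower in 13 of 19 and higher in 1, with a median of -1.56. Il6 had -0.77, -0.66, -0.053 and -1.11 at 168 h, against 1.18, 1.04, 1.66 and 1.14 at 24 h, -1.91 (SE 0.34, adjusted p = 6.04e-05). Its 4 arrays at 48 h had 2.91, 2.97, 2.94 and 2.64, all above the other times. Il1b had -0.81, -1.79, -0.74 and 0.48 at 168 h, against 1.39, 1.74, 1.81 and 1.98 at 24 h, -2.44 (adjusted p = 3.71e-05), again with replicate 4 highest at 168 h. Arg2, an arginase of inflammatory cells, was not above background on any array at 168 h and was at least 8.57-fold lower. The only member past the threshold upward was Il1rl1, a receptor of the interleukin 1 family, at 0.42, a call that was lost with slide as a block (adjusted p = 0.0546), with normexp, quantile or array-median scaling or array weights (adjusted p = 0.0628 to 0.155), and without replicate 1 or 3 at 24 h or replicate 3 or 4 at 168 h and whose sign turned with the mean of its probes, at -0.27 (adjusted p = 0.25).

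Monocyte and macrophage genes did not move as 1 block. Among inflammatory monocyte genes, 2 of 17 rose and 8 fell, where 29.3% of all genes rose and 30.7% fell. Their median was -0.22, or 0.25 with quantile normalization, with which 6 rose. Chil3, a chitinase-like protein of young monocytes and neutrophils, had -1.64, -3.06, -2.67 and -0.15 at 168 h, against 5.76, 4.26, 5.82 and 4.85 at 24 h, -7.05 (SE 0.71, adjusted p = 4.23e-08). Ccr2, the Ccl2 receptor that marks recruited monocytes, had 0.31, -0.37, -0.24 and 0.64 at 168 h, against 1.48, 1.58, 1.73 and 1.78 at 24 h, -1.56 (adjusted p = 3.7e-08). Arg1, the arginase of alternatively activated macrophages, had 0.88, -4.11, -4.97 and 1.49 at 168 h, against 4.32, 4.08, 4.39 and 3.995 at 24 h, -5.87 (adjusted p = 1.92e-05). Replicates 1 and 4 at 168 h kept far more Arg1 signal than replicates 2 and 3, and all 4 lay below every 24 h array. The size of the Arg1 difference is uncertain, as it ran from -7.38 to -4.77 over the alternatives.

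Of 22 resident and phagocytic macrophage genes, 10 rose and 5 fell, where 29.3% of all genes rose and 30.7% fell. Their median was 0.15, or -0.017 with normexp background correction, 0.032 without replicate 1 at 168 h and 0.24 without replicate 4. Adgre1, an adhesion receptor on most macrophages, had 3.60, 3.15, 3.38 and 2.90 at 168 h, against 2.30, 2.24, 2.11 and 2.25 at 24 h, 1.04 higher (SE 0.16, adjusted p = 1.02e-05). Cx3cr1, the receptor of Cx3cl1, had 2.93, 2.25, 2.94 and 2.65 at 168 h, against 0.74, 1.06, 0.055 and 1.03 at 24 h, 1.97 higher (adjusted p = 2.39e-06). Gas6, which bridges dying cells to macrophages, was 1.94 higher. Against them F13a1, a transglutaminase of recruited macrophages, was at -1.99, and Lyve1 and Cd163, marks of resident cardiac macrophages, at -1.01 and -1.14 (adjusted p = 0.000842 and 0.00927). The lysosomal glycoprotein gene Cd68 had 3.60, 3.22, 3.30 and 3.03 at 168 h, against 3.97, 4.19, 4.03 and 3.91 at 24 h, -0.74 (adjusted p = 0.00523).

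Lipid-handling macrophage genes were higher in 7 of 20 and lower in 6, where 29.3% of all genes were higher and 30.7% were lower. Their median was 0.18, and with quantile normalization 11 were higher. The median was 0.60 with quantile normalization, 0.049 with the array median and 0.11 without replicate 3 at 24 h. Spp1, encoding osteopontin, had 2.46, 2.33, 2.26 and 2.37 at 168 h, against 6.46, 6.19, 6.35 and 6.10 at 24 h, -3.92 (SE 0.47, adjusted p = 4.82e-07). The vehicle arrays of each time were tight, and the times were far apart. The SE also takes in the IGF1 arrays, which spread widely at 168 h. Gpnmb, a lysosomal glycoprotein of lipid-laden macrophages, moved the other way, with 0.77, 0.96, 0.75 and 0.35 at 168 h, against -2.25, -1.42, -1.55 and -1.57 at 24 h, 2.40 higher (SE 0.39, adjusted p = 2.18e-05). Apoe, the lipid carrier, and Ctsk, a collagen-degrading cathepsin, were 2.08 and 2.81 higher, and Plin2, a coat protein of lipid droplets, was lower, at -1.76 (adjusted p = 1.22e-07).

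Among MHC class II and dendritic cell genes 7 of 19 rose and 3 fell (median 0.32), where 29.3% of all genes rose and 30.7% fell. With quantile normalization or the array median 6 rose and 4 fell, and the median ran from 0.19 to 0.53 over the alternatives, with 0.21 without replicate 1 at 168 h and 0.53 without replicate 2. H2-Aa, a class II chain, had 2.87, 1.92, 2.60 and 2.76 at 168 h, against 0.98, 1.24, 0.96 and 0.82 at 24 h, 1.54 higher (SE 0.22, adjusted p = 5.1e-06). Among T and NK cell genes 10 of 17 rose and 0 fell (median 0.67), or 6 rose with a median of 0.35 with normexp background correction. Ccl5, a chemokine of T and NK cells, had 2.99, 1.41, 1.56 and 1.91 at 168 h, against -0.77, -0.67, -1.11 and -0.79 at 24 h, 2.80 higher (adjusted p = 1.74e-08), and Nkg7, a granule protein of cytotoxic cells, was 2.39 higher. The T cell receptor chains Cd3e and Cd3d did not pass, at 0.072 and 0.44 (adjusted p = 0.634 and 0.151). B cell genes were lower in 4 of 8, with the surface gene Ms4a1 at -1.53, whereas Jchain, which plasma cells make, was 3.005 higher (adjusted p = 0.00375). Of 7 eosinophil and mast cell genes 2 fell and 0 rose. Siglecf, an eosinophil receptor, was at -4.08 (adjusted p = 5.24e-10).

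Interferon-stimulated genes rose in nearly every member. Interferons act through transcription factors that bind the interferon-stimulated response element in the promoters of their targets. Of 23 members 22 rose and 0 fell, with a median of 1.53, and in 21 all 168 h arrays lay above all 24 h arrays, as in 24.8% of all genes. Ifit1, which binds viral RNA ends, had 0.46, 0.087, 0.079 and 0.36 at 168 h, against -1.53, -1.61, -1.87 and -1.71 at 24 h, 1.93 higher (SE 0.26, adjusted p = 1.64e-06). Isg15, a ubiquitin-like protein, had 3.97, 3.72, 4.13 and 4.11 at 168 h, against 2.61, 2.72, 2.24 and 2.25 at 24 h, 1.53 higher (SE 0.22, adjusted p = 5.49e-06). Both genes were grouped tightly within each time. Cxcl9, a T cell chemokine induced by interferon gamma, had 1.38, -0.75, -0.55 and 0.40 at 168 h, against -3.31, -3.26, -3.07 and -4.42 at 24 h, 3.64 higher (adjusted p = 2.84e-07). The mean over the list was 2.15, 1.22, 1.43 and 1.95 at 168 h, against 0.16, 0.18, -0.088 and -0.045 at 24 h, and replicates 1 and 4 were the higher ones at 168 h. The same 2 replicates were the higher ones for the T and NK cell list, whose means were -1.28, -2.26, -1.98 and -1.74 at 168 h, against -2.89, -2.96, -2.85 and -2.91 at 24 h, and the part of these cells in the interferon result was not tested. The member that did not pass was Oasl1, at 0.42 (adjusted p = 0.0808), and it passed in a fit of the vehicle arrays alone (adjusted p = 0.0257).

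The promoters of Ifit1 and Isg15 are shown because both genes rose and both hold the letters of the response element just upstream of their start. The stretches are the 120 bases before the RefSeq start site in GRCm38.p6, read along the gene's own strand, at chr19:34640769-34640888 (plus strand) for Ifit1 and chr4:156200819-156200938 (minus strand) for Isg15. Capitals mark each pair of GAAA half-sites set apart by any 2 bases, on either strand, and overlapping matches run together.
Ifit1: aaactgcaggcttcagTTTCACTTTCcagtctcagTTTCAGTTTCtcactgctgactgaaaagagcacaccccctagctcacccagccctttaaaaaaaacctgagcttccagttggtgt
Isg15: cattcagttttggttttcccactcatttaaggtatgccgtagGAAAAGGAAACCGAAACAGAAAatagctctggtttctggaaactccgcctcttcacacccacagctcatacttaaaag
Of the 22 RefSeq promoters found for 19 list genes, 9 (40.9%) held this pair on either strand in the 250 bases before the start, against 978 (2.98%) of all 32851 promoters and 4.35% of 23 promoters of mitotic genes. Ifit1 has 2 separate matches and Isg15 has 3 that overlap. The match of letters is a description and does not show that a factor bound there.

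Most complement genes rose, with 9 of 14 higher, 3 lower and a median of 2.21. C2, a serine protease of the classical pathway, had 1.45, 0.26, 0.48 and 0.94 at 168 h, against -4.03, -3.14, -4.01 and -3.21 at 24 h, 4.38 higher (SE 0.30, adjusted p = 2.47e-10). C4b and C3, the proteins that tag surfaces, were 3.49 and 2.34 higher (adjusted p = 3.9e-11 and 8.79e-09). The 3 that fell were the receptors C5ar1, at -1.52, and C3ar1, at -0.43, and the stabilising factor Cfp, at -1.66. The call on C3ar1 was lost with slide as a block (adjusted p = 0.0829), without a filter on dim probes (adjusted p = 0.0509), and without replicate 2 or 4 at 24 h or replicate 2, 3 or 4 at 168 h.

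**Figure D2:**
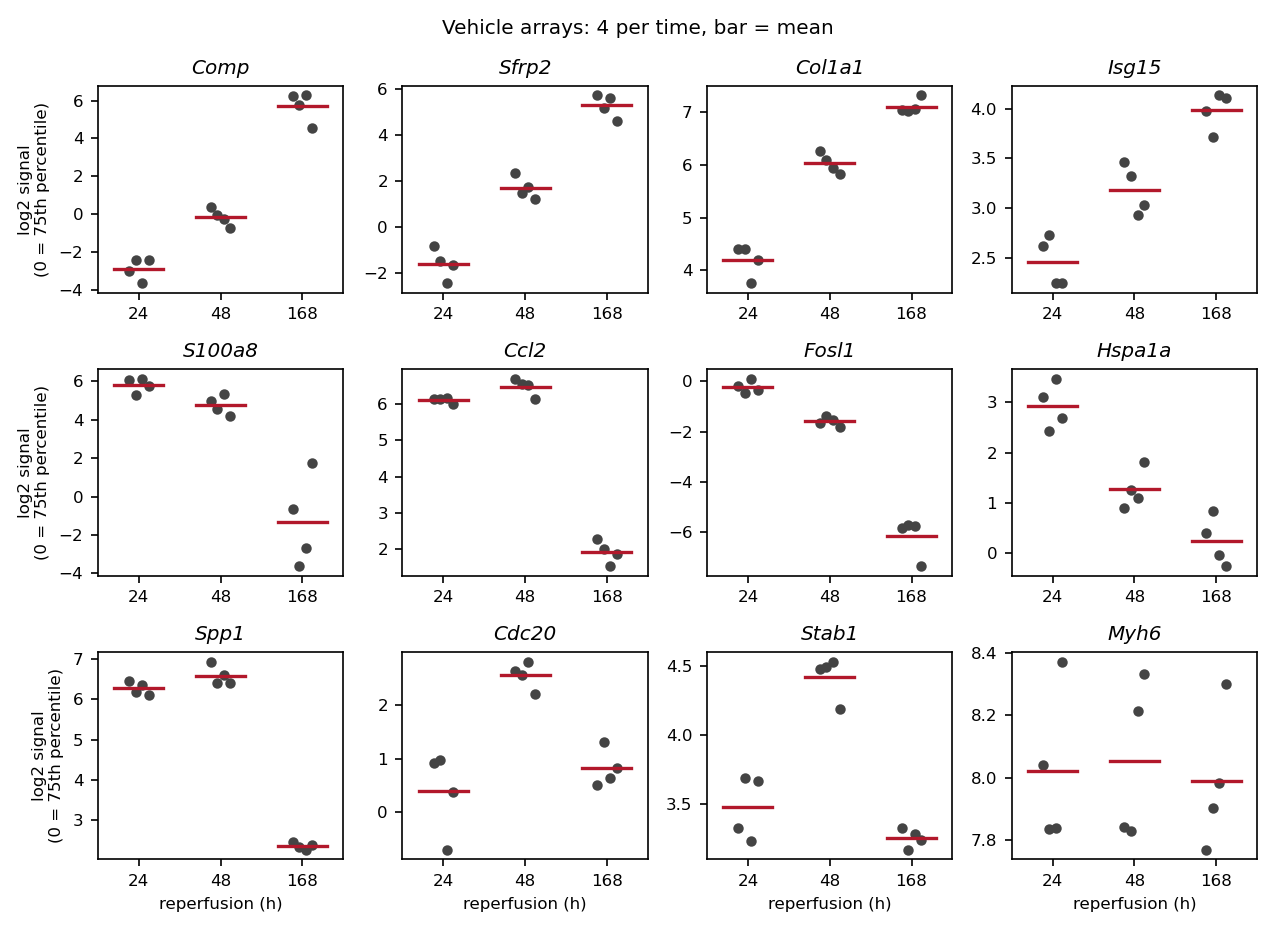
Log2 signal of 12 genes (0 is the 75th percentile of the array) on the 4 vehicle arrays at each of 24, 48 and 168 h; points are arrays, bars are means, each panel has its own axis and the times are evenly spaced. Comp and Sfrp2 climb at both steps, Ccl2 and Spp1 drop after 48 h, Cdc20 and Stab1 peak at 48 h, and Myh6 overlaps throughout.

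Genes of biosynthesis and cellular stress were lower after the week. All 22 of 22 ribosome biogenesis genes fell, with a median of -1.44. In all of them the 168 h arrays lay below the 24 h arrays, as in 27.9% of all genes. Myc, the transcription factor that drives this programme, had -1.48, -1.50, -1.50 and -1.55 at 168 h, against 1.01, 0.79, 1.32 and 0.90 at 24 h, -2.51 (SE 0.15, adjusted p = 2.89e-11). The nucleolar proteins Rrp12 and Nop58 differed by -2.37 and -1.89. Heat shock chaperones were lower in 15 of 17 (median -0.95, or -0.62 with quantile normalization). Hspa1a, the inducible HSP70, had 0.40, 0.83, -0.049 and -0.27 at 168 h, against 3.10, 2.43, 3.47 and 2.70 at 24 h, -2.70 (SE 0.26, adjusted p = 2.1e-08), and Hspb1, a small heat shock protein of muscle, differed by -1.38.

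Endoplasmic reticulum stress genes were lower in 14 of 20 and higher in 0 (median -0.98, or -0.62 with quantile normalization). Hspa5, the lumenal chaperone BiP, had 4.93, 5.46, 5.01 and 5.12 at 168 h, against 6.67, 6.72, 6.66 and 6.50 at 24 h, -1.51 (SE 0.16, adjusted p = 8.17e-08). Sdf2l1, a cofactor of BiP, differed by -2.72. Derl3, which helps to pull misfolded proteins out of the reticulum and is no member of the list, had -3.23, -2.997, -3.91 and -4.10 at 168 h, against 3.02, 2.81, 1.96 and 1.33 at 24 h, -5.84 (SE 0.60, adjusted p = 5.9e-08). Ddit3 and Herpud1 did not pass, at 0.13 and 0.12 (adjusted p = 0.461 and 0.604). Oxidative stress, heme and metal genes were lower in 15 of 23 and higher in 5 (median -0.75). Hmox1, which breaks down heme, had 2.61, 2.004, 2.08 and 2.49 at 168 h, against 5.18, 5.12, 5.11 and 4.95 at 24 h, -2.79 (SE 0.18, adjusted p = 8.27e-11). The metal-binding Mt2 differed by -2.001, and the cystine carrier gene Slc7a11, with no array above background at 168 h, was at least 3.95-fold lower. Among the members that rose were the extracellular antioxidant enzymes Gpx3, by 1.99, and Sod3, by 1.64.

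Immediate early genes and the feedback inhibitors of the ERK kinases were lower in 15 of 24 and higher in 2 (median -0.65). Fosl1, the AP-1 subunit Fra-1, had -5.83, -5.71, -5.74 and -7.36 at 168 h, against -0.17, -0.45, 0.11 and -0.33 at 24 h. It was above background on all 4 arrays at 24 h and on none at 168 h, so it was at least 31.3-fold lower (adjusted p = 6.94e-12). The ERK phosphatase gene Dusp5 was at least 3.97-fold lower. Jun and Egr1, of the same class, did not pass, at -0.19 and 0.19 (adjusted p = 0.158 and 0.427), though Jun passed with the array median, at -0.32. The 2 that rose were Klf4 and Egr3, by 0.87 and 0.74.

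**Figure D3:**
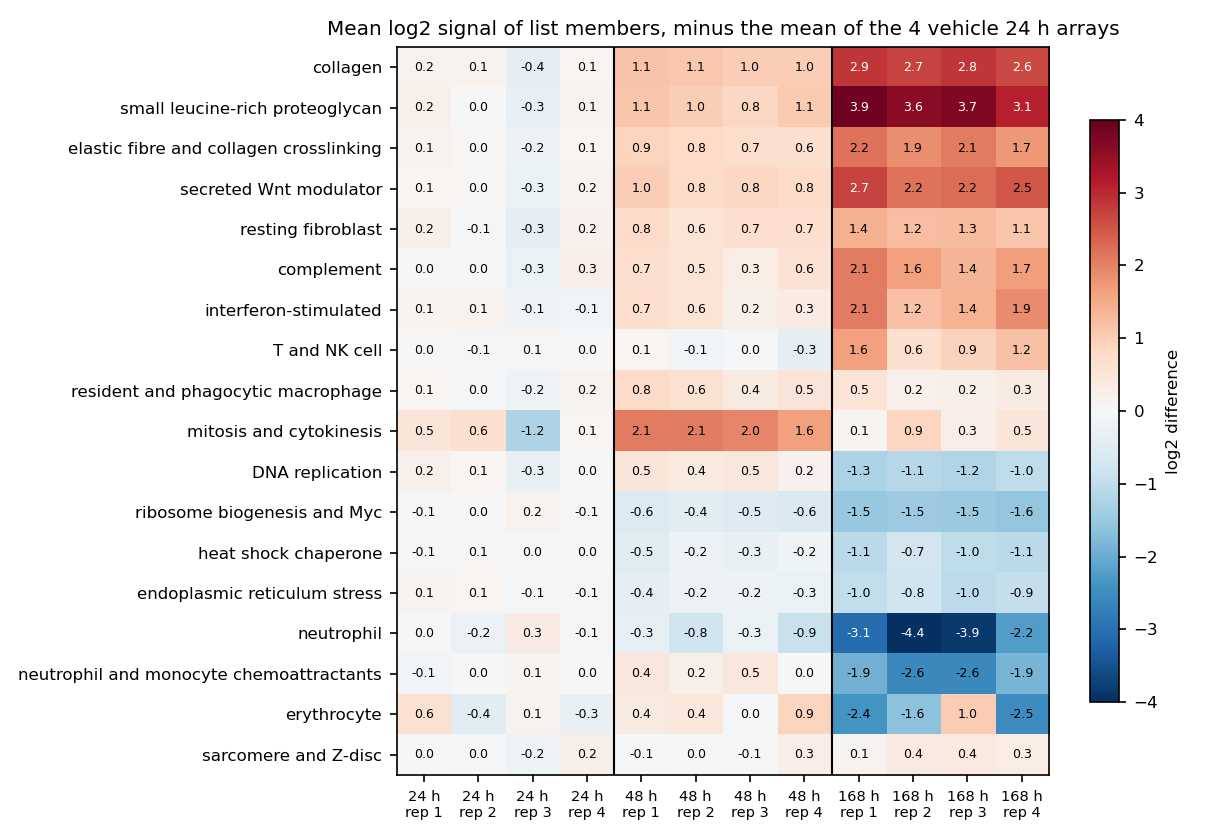
Mean log2 signal over the members of 18 lists on each of the 12 vehicle arrays, minus the mean of the 4 vehicle arrays at 24 h (colour and printed value, rows are lists, columns are arrays). Matrix lists are higher at 168 h than at 48 h, mitotic genes are highest at 48 h, replicate 4 at 168 h keeps the most neutrophil signal and replicate 3 at 168 h stands apart in the erythrocyte list.

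Cell division genes were highest at 48 h, which the 168 h and 24 h arrays alone do not show. Of all genes, 287 (1.81%) met the rule for a peak at 48 h with return: above 24 h and above 168 h at 48 h, both past the threshold, and a difference between 168 h and 24 h that did not pass and was within 0.5 of 0. Of 26 mitosis and cytokinesis genes, 14 met it. The list's median difference from 24 h was 1.90 at 48 h and 0.44 at 168 h. Over the week 5 members rose and 0 fell. Cdc20, which activates the anaphase-promoting complex, had 0.93, 0.98, -0.69 and 0.38 at 24 h, 2.64, 2.57, 2.81 and 2.21 at 48 h and 0.51, 1.31, 0.65 and 0.83 at 168 h. All 48 h arrays were above all others, and the 168 h and 24 h arrays overlapped, at a difference of 0.42 (adjusted p = 0.162) that passed, at 0.62 (adjusted p = 0.0473), without replicate 2 at 24 h. Cdk1, the kinase that starts mitosis, averaged -1.71, -0.16 and -1.71 at 24, 48 and 168 h. Plk1, a mitotic kinase, averaged 0.22, 2.65 and 0.66, and Birc5, the survivin gene, 1.76, 3.73 and 1.76. Replicate 3 at 24 h was low in this list: the mean over the list was 1.08, 1.08, 0.95 and 0.63 at 48 h, against -0.52, -0.37, -2.24 and -0.93 at 24 h. With that array left out, 218 of all genes met the peak rule, in place of 287. The part of that array in the 48 h result of this list was not tested. Without it 3 members were higher and 2 were lower at 168 h, with a median of 0.044, and without replicate 1 or 2 at 24 h the higher ones numbered 10 or 13, the median being 0.68 without replicate 2. Without replicate 2 at 168 h 1 was lower.

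Mitotic genes share promoter elements, the CCAAT box bound by NF-Y and the cell cycle homology region bound by the DREAM complex, and Cdc20 and Cdk1 are shown because both peaked at 48 h. The 120 bases before the start site (RefSeq, GRCm38.p6, gene strand) lie at chr4:118437344-118437463 for Cdc20 and chr10:69352913-69353032 for Cdk1, both on the minus strand. Capitals mark TTTGAA, the core of the cell cycle homology region, and CCAAT, each on either strand.
Cdc20: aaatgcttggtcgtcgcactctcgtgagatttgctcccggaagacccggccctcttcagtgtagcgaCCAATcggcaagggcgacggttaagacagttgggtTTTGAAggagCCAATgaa
Cdk1: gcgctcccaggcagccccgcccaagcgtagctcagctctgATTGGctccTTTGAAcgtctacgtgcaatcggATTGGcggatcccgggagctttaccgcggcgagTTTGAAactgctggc
TTTGAA was found in 10 (43.5%) of the 23 promoters of 21 mitotic list genes, against 16.0% of all 32851 promoters. CCAAT was found in 20 (87.0%), against 33.8% of all, and both together in 10 (43.5%), against 5.55% of all. Both short words occur often by their letters alone, and a match is a description of the sequence only.

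**Figure D4:**
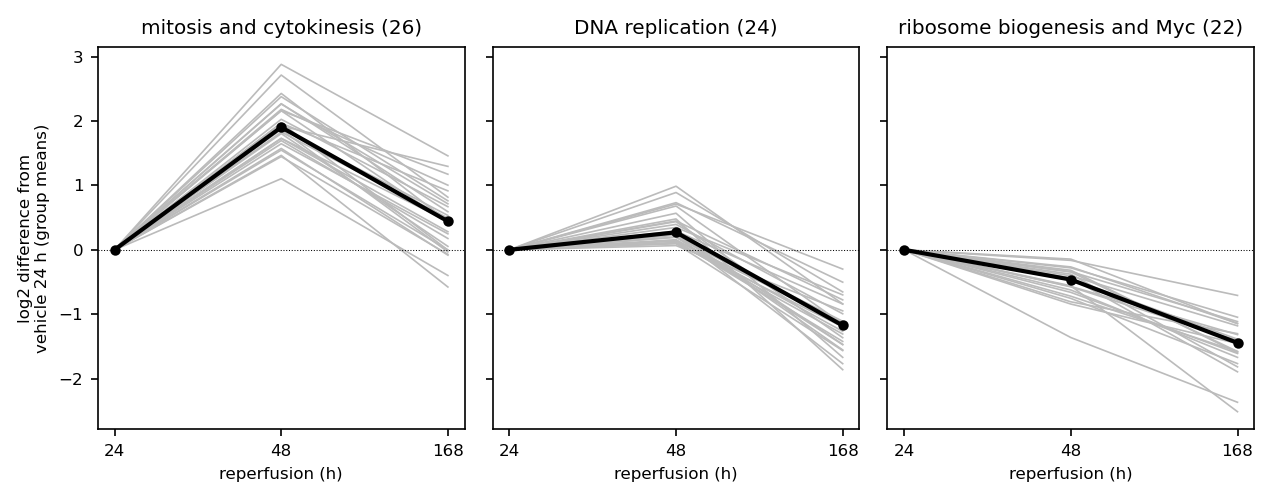
Difference of group means from vehicle 24 h (log2, y axis) at 24, 48 and 168 h for each gene of 3 lists (grey) and their median (black). Mitotic genes rise to a median of 1.90 at 48 h and return, replication genes end at -1.17 and ribosome biogenesis genes at -1.44.

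DNA replication genes ended below their 24 h level. At 168 h 23 of 24 were lower than at 24 h and 0 were higher, with a median of -1.17. Mcm5, a subunit of the replicative helicase, had -0.26, 0.011, 0.061 and 0.28 at 168 h, against 1.94, 1.94, 1.55 and 1.73 at 24 h, -1.77 (SE 0.16, adjusted p = 6.89e-09). Pcna, the sliding clamp, had 2.59, 2.78, 2.59 and 2.86 at 168 h, against 4.06, 3.90, 3.82 and 3.81 at 24 h, -1.20 (adjusted p = 8.17e-09). Tyms, for thymidylate synthesis, was the member that did not pass, at -0.30 (adjusted p = 0.0888), and it met the peak rule. It passed downward with the array median, with slide or replicate as a block and without replicate 3 at 24 h.

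Outside the cell cycle, several macrophage genes met the peak rule: 4 of 22 in the resident and phagocytic list and 2 of 20 in the lipid-handling list. Stab1, a scavenger receptor, had 3.32, 3.69, 3.23 and 3.66 at 24 h, 4.48, 4.50, 4.53 and 4.18 at 48 h and 3.32, 3.16, 3.28 and 3.23 at 168 h. The 48 h arrays were above all others, and the fall at 168 h below 24 h, -0.23 (adjusted p = 0.0748), passed with the array median, array weights or the deposited value table and without replicate 1 or 3 at 24 h. The lysosomal protease gene Ctsd averaged 6.14, 6.71 and 6.33 at 24, 48 and 168 h, but with quantile normalization it stayed above 24 h at 168 h, by 0.68 (adjusted p = 6.13e-05). The rule for a dip at 48 h with return was met by 214 genes (1.35%). Tbx6, a transcription factor of the embryonic mesoderm, averaged -0.88, -2.03 and -0.71 at 24, 48 and 168 h, and Shisa3, an inhibitor of Wnt and FGF receptors, -1.86, -2.74 and -1.87.

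Heart muscle genes changed in both directions, more of them upward in the contractile and calcium lists. Of 22 sarcomere and Z-disc genes 10 rose and 2 fell (median 0.17), and of 20 calcium handling and excitation genes 9 rose and 2 fell (median 0.42). Beside these counts stand 29.3% of all genes that rose and 30.7% that fell. The sarcomere median was 0.50 with quantile normalization, 0.04 with the array median, 0.33 with the mean of probes and 0.27 without replicate 1 at 168 h, and the calcium median was 0.73 with quantile normalization and 0.27 without replicate 4 at 168 h. The calcium genes that fell numbered 0 to 3 over the alternatives, 1 of them without replicate 1 or 4 at 24 h or replicate 1 or 3 at 168 h. Myh7, the slow motor protein of the fetal and failing mouse heart, had 7.86, 7.04, 7.98 and 5.96 at 168 h, against 5.44, 5.33, 4.87 and 5.52 at 24 h, 1.92 higher (SE 0.38, adjusted p = 0.000199). Replicate 4 was the lowest at 168 h and still above every 24 h array. Mybpc3, the cardiac myosin-binding protein, was 1.22 higher (adjusted p = 5.03e-08). Csrp3 and Xirp2, Z-disc and intercalated disc proteins that respond to stretch, were lower, at -1.50 and -1.51 (adjusted p = 6.91e-10 and 5.64e-05). Kcnip2, a subunit of the transient outward potassium current, had -1.57, -0.70, -0.97 and -0.85 at 168 h, against -3.14, -3.53, -3.48 and -3.25 at 24 h, 2.33 higher (adjusted p = 1.6e-06). Its pore-forming partner Kcnd2 was 1.99 higher, and Pln, the inhibitor of the calcium pump, 0.95 higher.

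Fetal and stretch-responsive cardiac genes divided, with 4 of 15 higher and 8 lower (median -0.31; 2 higher without replicate 1 at 168 h), where 29.3% of all genes rose. With quantile normalization 5 were higher, 6 were lower and the median was -0.046. Ankrd2, a titin-binding stress protein best known from skeletal muscle, had -3.65, -3.20, -3.16 and -3.81 at 168 h, against 3.11, 2.91, 3.60 and 2.46 at 24 h, -6.47 (SE 0.36, adjusted p = 1.35e-11). All 4 arrays at 168 h were far below those at 24 h, and the 48 h mean was 0.33. Flnc, a filamin that tethers actin at Z-discs, differed by -2.55 (adjusted p = 1.54e-09). Nppb, the B-type natriuretic peptide, had 6.19, 6.66, 6.67 and 6.13 at 168 h, against 7.16, 7.21, 7.07 and 7.70 at 24 h, -0.87 (adjusted p = 0.000188), while Nppa, the atrial one, did not pass at 0.23 (adjusted p = 0.0901). Nppa passed upward with normexp or quantile normalization, with the mean of its probes and without replicate 4 at 24 h. The skeletal actin gene Acta1 was 1.23 higher.

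Few fatty acid and respiratory chain genes passed the test. The counts of this paragraph stand beside 29.3% of all genes that rose and 30.7% that fell, together 60.1%. Of 25 fatty acid genes 3 rose and 2 fell (median -0.032), and of 26 respiratory chain and tricarboxylic acid cycle genes 1 rose and 1 fell (median -0.0029). These lists depended on the setting, their medians running from -0.16 to 0.35 and from -0.13 to 0.37: with quantile normalization their medians were 0.35 and 0.37, with 11 and 16 members higher, and without replicate 1 at 168 h 6 and 2 were higher. The members that fell numbered 1 to 4 and 0 to 3 over the alternatives, with 1 and 0 without replicate 1 at 24 h or at 168 h. Cpt1b, which admits fatty acids to mitochondria, had 2.52, 3.16, 2.95 and 3.36 at 168 h, against 2.38, 2.03, 2.005 and 2.77 at 24 h, 0.70 higher (SE 0.19, adjusted p = 0.00303), with overlap. Cd36, the fatty acid carrier, differed by -0.15 (adjusted p = 0.42). Of 26 glycolysis and hypoxia genes 5 rose and 10 fell (8 and 6 with quantile normalization, 2 higher with the array median, 3 higher without replicate 3 at 24 h and 8 without replicate 4). The median of the list was 0.019, or -0.11 to 0.074 over the alternatives. The glucose carriers differed in direction. Slc2a1, the basal carrier, had 1.77, 1.57, 1.57 and 1.46 at 168 h, against 2.84, 3.26, 3.05 and 3.02 at 24 h, -1.45 (adjusted p = 1.13e-09). Slc2a4, the insulin-responsive carrier of muscle, was 1.31 higher (adjusted p = 2.84e-05).

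Vessel genes changed in both directions. Of 24 endothelial genes 7 rose and 11 fell (median -0.19), where 29.3% of all genes rose and 30.7% fell. With quantile normalization 8 rose, 7 fell and the median turned to 0.039; it was -0.32 with the array median and -0.10 without replicate 1 at 24 h. The higher ones numbered 2 to 8 over the alternatives, 2 with the array median, with slide as a block or without replicate 2 at 168 h, and 4 without replicate 3 at 168 h or replicate 2 or 4 at 24 h. Apln, the ligand apelin of sprouting tip cells, had 0.14, 1.14, 1.15 and 0.87 at 168 h, against 3.72, 3.24, 3.08 and 2.80 at 24 h, -2.38 (SE 0.20, adjusted p = 4.03e-09). Its receptor gene Aplnr had 1.27, 1.40, 1.28 and 0.90 at 168 h, against -0.23, -0.11, -0.27 and -0.60 at 24 h, 1.51 higher (adjusted p = 1.33e-05). Of 8 lymphatic genes 4 rose and 3 fell (median 0.65). Ccl21a, the chemokine of lymphatic vessels, was 2.95 higher, and Pdpn, which activated fibroblasts share with lymphatics, was lower, at -2.21 (adjusted p = 2.94e-06 and 4.6e-10). Smooth muscle and pericyte genes had 6 of 14 higher and 2 lower, with a median of 0.091 that ran from -0.04 to 0.18 over the alternatives; 0 were lower with quantile normalization.

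Markers of tissue that could enter a dissection varied between hearts. The counts below stand beside 29.3% of all genes that rose and 30.7% that fell. Of 11 epicardial and mesothelial genes 8 rose and 1 fell (median 1.44, or 0.71 with bounds and 0.60 with normexp background correction). Their mean was 0.48, -1.41, -0.59 and -0.91 at 168 h, against -2.22, -2.51, -2.34 and -1.58 at 24 h, with replicate 1 the highest at 168 h. Msln, the mesothelial coat protein, had 1.75, -1.29, 0.54 and -0.66 at 168 h, against -4.53, -5.55, -4.67 and -1.85 at 24 h, where 1 array was above background. Red cell genes were lower in 5 of 12, but their mean was -1.77, -1.01, 1.65 and -1.89 at 168 h, against 1.24, 0.20, 0.75 and 0.32 at 24 h, and without replicate 3 at 168 h 8 members were lower. Without replicate 1 or 4 at 168 h 2 members were lower, and without replicate 2 at 168 h or replicate 1 or 3 at 24 h 3 were; with array weights 0 were. The median was -1.43, but -2.62 without replicate 3 at 168 h, -0.94 without replicate 4, -2.26 with slide as a block and -0.55 with array weights. Hba-a1, an alpha globin whose probe may also detect its copy Hba-a2, had 3.77, 4.45, 8.25 and 3.51 at 168 h, against 8.03, 7.02, 7.86 and 7.43 at 24 h (adjusted p = 0.00511). Platelet genes were lower in 7 of 10 and higher in 2 (median -1.29, or -0.63 with normexp background correction), and Pf4, platelet factor 4, which macrophages also make, had 3.07, 3.19, 2.86 and 3.54 at 168 h, against 6.08, 5.98, 6.03 and 5.92 at 24 h, -2.84 (adjusted p = 1.12e-10). Skeletal muscle genes were higher in 5 of 13 and lower in 1 (median 0.42, or 0.23 without replicate 4 at 168 h). Schwann cell and nerve genes were higher in 5 of 12 and lower in 3 (median 0.20, or 0.067 to 0.26 over the alternatives; 3 higher without replicate 3 at 24 h or at 168 h), and adipocyte genes were higher in 1 of 10 and lower in 1 (median -0.095, or -0.23 to 0.076 over the alternatives; 1 to 2 higher and 1 to 4 lower over the alternatives). The part of these cells in the other results was not tested.

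The lists also differed in which part of the week held their change. The steps from 24 h to 48 h and from 48 h to 168 h share the 48 h arrays, so their values are given side by side only. The later step is much the longer one, and the values are total changes, not rates. Collagen genes had a median of 1.07 over the earlier step and 1.42 over the later one, and proteoglycan genes 0.97 and 2.12. Interferon-stimulated genes had 0.44 and 1.11, and T and NK cell genes -0.15 and 1.41. The falls lay mostly in the later step: neutrophil genes had -0.66 and -2.65, chemoattractants 0.36 and -2.84, cytokines 0.069 and -1.75, and DNA replication genes 0.27 and -1.48. Over all genes the medians of the steps were -0.0171 and 0.0262, with 3596 and 8459 genes past the threshold.

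In the separate arrays of IGF1 hearts, 4167 genes (26.2%) were higher and 5049 (31.8%) were lower at 168 h than at 24 h. The difference between the change in vehicle hearts and the change in IGF1 hearts passed the threshold in 1723 genes (10.9%). In the matrix lists 0 of 21 collagen genes and 0 of 11 proteoglycan genes passed it, and their medians were 2.60 and 2.92 in vehicle hearts, against 2.60 and 3.05 in IGF1 hearts. The lists with the largest shares of such genes were mitosis, with 19 of 26, DNA replication, with 19 of 24, and fatty acid oxidation, with 19 of 25. Their median changes were 0.44, -1.17 and -0.032 in vehicle hearts, against 1.73, -0.50 and -0.75 in IGF1 hearts. The treatments lay further apart at 24 h than at 168 h in these lists. Mean signals of the lists at 24 h were -1.01, 1.03 and 4.06 in vehicle hearts, against -2.08, 0.51 and 4.83 in IGF1 hearts. At 168 h they were -0.58, -0.13 and 4.06, against -0.28, 0.11 and 3.95. Spp1 changed by -3.92 in vehicle hearts, against 0.075 in IGF1 hearts, a difference of -3.997 (SE 0.67, adjusted p = 0.00244). In IGF1 hearts Spp1 had 3.27, 7.10, 4.58 and 5.85 at 168 h, against 5.46, 5.07, 5.40 and 4.58 at 24 h, and spread widely at 168 h. Hmox1 changed by -2.79 in vehicle hearts, against -1.36 in IGF1 hearts (adjusted p of the difference = 0.00311), Gpnmb by 2.40, against 5.50 (adjusted p = 0.00331), and Cd36 by -0.15, against -1.26 (adjusted p = 0.00455). Cd48, a receptor of leukocytes, changed by 0.16 in vehicle hearts, against 1.40 in IGF1 hearts, and was among the genes with the smallest p of the difference (adjusted p = 0.000547). The count of 1723 moved with single arrays and settings, to between 987 and 2604.

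**Figure D5:**
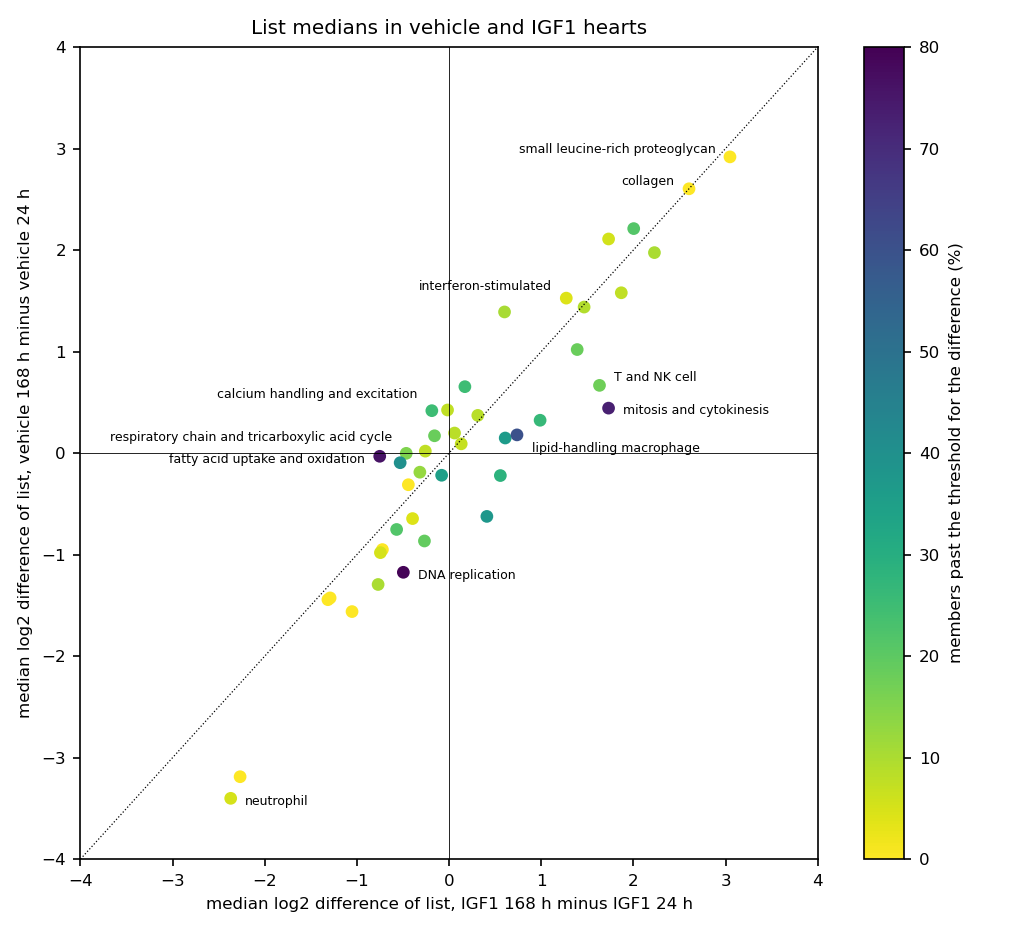
Median log2 difference between 168 h and 24 h of each of 43 gene lists in vehicle hearts (y axis) and in IGF1 hearts (x axis), with the dotted line marking equality. Colour gives the share of a list's genes past the threshold for the difference between treatments: collagen and proteoglycan lists lie near the line at a share of 0, whereas mitosis, DNA replication and fatty acid oxidation lie off it with high shares.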

How the data were processed

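RNA of the anterior left ventricular wall was measured on one-colour Agilent mouse arrays, 1 array per sample, 4 per group, in 24 samples. Per the file headers, the authors read the fluorescence intensity of each spot and corrected its background in Feature Extraction, version 12.0.3.2. The deposited value table holds log2 values of the same arrays, centred for each probe, with column medians of -0.0557 to 0.0527. Between arrays it differed from log2 of the scanner intensities with a residual SD of 0.0162, so its scale and direction are the same; which arrays the authors centred on is not given in the sources used here, and it served as an alternative only. Here log2 of the processed intensity minus the array's 75th percentile was used (528 to 887 intensity units over the 24 arrays). Control spots and spots with outlier marks were left out, and spots of 1 probe were averaged. Of 56605 probes, 33767 had 1 gene symbol, matched by accession to RefSeq (GRCm38.p6), and 22838 had none. A probe was kept if well above background on 4 of 24 arrays, and each gene was represented by its brightest one. The 75th percentile and the filter were applied alike to all arrays.

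limma 3.58.1 in R 4.3.3 fitted 1 mean per group over all 24 arrays (18 residual degrees of freedom), and p-values were adjusted with Benjamini-Hochberg over 15875 genes. No list was tested as a set. Lists are described by counts and medians, to be read beside the 29.3% of all genes that rose and the 30.7% that fell. The number of arrays limits the precision. The same fit was also run on data simulated from these arrays, with known changes in far fewer genes than passed here. The main fit did not pair samples by replicate number. Deviations from the group means of same-numbered vehicle arrays at 168 h and 24 h had correlations of 0.050, 0.115, 0.018 and 0.264 for numbers 1 to 4. So few values cannot settle whether the numbers pair the samples.

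The groups, lists and members were chosen with earlier results of these data known. The rule for named genes took the 20 largest and 20 smallest differences, up to 6 members of each list by p, members moving against their list's median, 12 peaks and 12 dips, 10 genes of the treatment comparison and a set of infarct genes; the text gives a part of them. Named outside the rule, after their values were seen, were Bmp1, Camp, Cd3d, Cd3e, Cdk1, Col14a1, Col4a1, Col4a2, Csf3r, Ctsd, Ddit3, Egr1, Herpud1, Isg15, Jun, Msln, Nop58, Oasl1, Omd, P4ha1, Padi4, Plau, Pln, Rrp12, Serpinh1, Slc2a4, Slc7a11, Stab1, Tyms and Wnt5a. Alternatives changed the background correction, normalization, scaling percentile, probe rule, filter, arrays in the fit, slide or replicate block, array weights and value source, or left out 1 array. Some results are not reported here.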

Additional observations from a re-analysis of the deposited data

Results flagged for a closer look

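Dixon's test over 432 sets of 4 vehicle arrays, for named genes and list means at 168 h and 24 h, marked 29 sets in which 1 array lay far from the other 3, where chance alone marks about 1 in 20. Replicate 4 at 168 h stood apart in Cilp at 4.10, Col12a1 at 0.80, Col1a1 at 7.31, Fosl1 at -7.36, Fstl3 at 0.83, Lyve1 at -0.61, Postn at 6.12, Tyms at 1.08, Wnt11 at -1.52 and Xirp2 at 3.38. This array sat on slide 4 and replicates 1, 2 and 3 at 168 h on slide 1, so sample and slide cannot be told apart. Replicate 1 at 168 h stood apart in Actc1 at 7.70, Ctsk at 4.09, Ms4a1 at -3.24, Pln at 4.47 and the mean of the list of glycolysis and hypoxia genes at 3.71. Replicate 3 at 168 h stood apart in the mean of the list of platelet genes at -1.68. Replicate 3 at 24 h stood apart in Col3a1 at 4.42, Col5a1 at 2.96, Dkk3 at -3.19, Gpx3 at 2.23, Ptn at -4.74, Sfrp1 at -4.30 and Slc7a11 at -2.38. Replicate 2 at 24 h stood apart in Cfp at 4.09, Shisa3 at -1.33 and the mean of the list of immediate early and ERK feedback genes at 0.83. Replicate 1 at 24 h stood apart in Eln at -1.01, the mean of the list of endothelial genes at 2.44 and the mean of the list of smooth muscle and pericyte genes at 1.68.

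Over all genes, 1723 of 15875 (10.9%) passed the test of the difference between the changes in vehicle and IGF1 hearts. Named genes were in part chosen by this test or after their values were seen, so their share cannot be set against that one. The change over the week in vehicle hearts minus that in IGF1 hearts passed the test of the difference in 32 of 173 named genes. It was below 0, with the vehicle change below the IGF1 change, for Adgre1 (-1.12), Birc5 (-1.55), C3ar1 (-1.43), C5ar1 (-0.95), Ccr2 (-0.97), Cd48 (-1.24), Cd68 (-1.36), Cdc20 (-1.39), Cdk1 (-1.39), Cfp (-1.10), Cx3cr1 (-1.44), Gpnmb (-3.10), Hmox1 (-1.43), Igf1 (-0.88), Mcm5 (-0.86), Ms4a1 (-1.64), Pdpn (-0.73), Pf4 (-0.93), Plau (-1.27), Plaur (-0.89), Ptprc (-1.07), Serpinh1 (-0.75), Siglecf (-1.92), Spp1 (-3.997), Stab1 (-0.93), Tgfb1 (-0.52), Tgfbi (-1.01) and Tyms (-0.84). It was above 0 for Cd36 (1.11), Cpt1b (1.24), Kcnip2 (1.48) and Klf4 (0.69).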

How the results depend on the processing

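Every alternative kept the counts of higher and lower genes within 1.5 times, except a test of all 34463 kept probes, chosen after seeing the data, which gave 8385 higher and 9168 lower. Leaving out 1 array gave 4246 to 4587 higher, 4627 to 4753 lower, 218 to 311 peaks, 135 to 298 dips and 987 to 2385 genes for vehicle against IGF1. The dips numbered 140 without replicate 3 of vehicle at 24 h, 135 without replicate 3 of vehicle at 48 h and 130 with vehicle arrays alone. The vehicle against IGF1 count was 1119 with the array median, 1000 without a filter on dim probes, 2604 with array weights, 1051 without replicate 2 of vehicle at 24 h, 1078 without replicate 2 of vehicle at 168 h and 987 without replicate 1 of IGF1 at 24 h. The causes were not tested. With the array median, the vehicle difference between 168 h and 24 h had a median of -0.1317 over all genes. The test without a filter on dim probes covered 23462 genes. With the replicate number as a block, 4781 higher and 5017 lower genes were called. Csf3r reversed to 0.43 with quantile normalization, and Il1rl1 to -0.27 and Myh6 to 0.47 with the mean of probes. Of the other values of named genes under an alternative, 23 gained and 29 lost their call and 3405 stayed. Of list medians 815 stayed within the spread and 45 did not. With normexp background correction the differences of Jchain, Kcnip2, Ms4a1, Nkg7, Siglecf and Msln were 1.57, 1.44, -0.84, 1.58, -2.69 and 2.63, and that of Nppb was -0.47 with quantile normalization. Dim probes limit the size of a difference, which is why bounds are given.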
